A study of Mus musculus with 3 samples.

Results

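A set of 10 vessel genes was followed through 3 sections of mouse thymus: Glycam1, Madcam1, Chst4, Ackr1, Pecam1, Cdh5, Kdr, Emcn, Plvap and Vwf. They are 10 of the 54838 genes of the count tables and were picked by name, with their levels by section and tissue area in these same files already known. Their levels are therefore descriptions, and no test was made on them. The question was which of the 10 genes were found wherever there are vessels and which marked the venules of B-cell zones, in Trp53-/- tissue set beside wild-type tissue.

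The sections came from 3 female C57BL/6 mice. KO1134 is labelled as a Trp53-/- mouse of 17 weeks, KO1308 as a Trp53-/- mouse of 21 weeks, and the WT section as a Trp53+/+ mouse of 17 weeks. The knockout is a germline one, carried by vessels, stroma and lymphocytes alike. The study's own sample list and the labels differ over the KO mice, age included, so which of both mice, and of which age, the values of KO1134 and KO1308 belong to is uncertain, and the labels were followed. Each mouse was anaesthetised with pentobarbital and perfused with cold PBS, and the thymus was embedded in OCT. Permeabilisation times differed between the KO and WT sections, so capture and genotype cannot be told apart. No test was made between genotypes, since 2 KO sections against 1 WT section allow no one-sided exact permutation p below 0.333. Intervals in brackets are exact 95% intervals that cover counting error only.

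High endothelial venules are the postcapillary venules through which lymphocytes leave the blood and enter lymph nodes. Their tall endothelial cells carry sulphated, fucosylated sugars on mucins such as the product of Glycam1, and lymphocytes bind these sugars through L-selectin. Chst4 encodes the sulphotransferase that completes this ligand in high endothelial cells. Madcam1 encodes the ligand of the gut-homing integrin and is found on venules of mucosal lymphoid tissue and on stromal cells of follicles. Ackr1 encodes an atypical chemokine receptor of venular endothelium. Pecam1, Cdh5 and Kdr serve endothelium in general, as a junction molecule shared with leukocytes, the cadherin of endothelial junctions and the main VEGF receptor. Emcn encodes a sialomucin of venous and capillary cells, Plvap builds the diaphragms of fenestrae and caveolae, and Vwf encodes von Willebrand factor, which platelets also carry.

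Glycam1 lies at chr15:103562759-103565081 on the minus strand of GRCm38, Madcam1 at chr10:79664559-79668537 on the plus strand, Ackr1 at chr1:173331886-173333750 on the minus strand and Kdr at chr5:75932827-75978458 on the minus strand. The gene identifiers of all 10 genes matched the annotation of that build. The 250 bases before RefSeq's start of transcription are printed for these 4 genes because their levels separated the areas in different ways. The sequences are RefSeq's on GRCm38.p6, 5′ to 3′ on the gene's own strand. They cover chr15:103565082-103565331 for Glycam1, chr10:79664309-79664558 for Madcam1, chr1:173333504-173333753 for Ackr1 and chr5:75978456-75978705 for Kdr. RefSeq's start for Ackr1 differs from the gene span given above, and nearly all of its window lies within that span. Capitals mark matches, on either strand, to CAGGAAG, a site of ETS factors, which are endothelial regulators, or to GGG and CC with any 5 bases between them, a loose κB site.
Glycam1: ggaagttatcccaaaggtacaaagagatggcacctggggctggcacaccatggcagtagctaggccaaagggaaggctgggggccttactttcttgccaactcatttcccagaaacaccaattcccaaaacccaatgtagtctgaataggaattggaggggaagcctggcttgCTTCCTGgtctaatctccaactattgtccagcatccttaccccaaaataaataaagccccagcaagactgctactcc
Madcam1: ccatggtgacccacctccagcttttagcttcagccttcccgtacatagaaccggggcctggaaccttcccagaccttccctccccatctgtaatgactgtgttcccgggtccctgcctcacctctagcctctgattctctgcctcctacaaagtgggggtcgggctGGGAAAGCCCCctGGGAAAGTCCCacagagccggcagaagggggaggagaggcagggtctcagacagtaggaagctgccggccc
Ackr1: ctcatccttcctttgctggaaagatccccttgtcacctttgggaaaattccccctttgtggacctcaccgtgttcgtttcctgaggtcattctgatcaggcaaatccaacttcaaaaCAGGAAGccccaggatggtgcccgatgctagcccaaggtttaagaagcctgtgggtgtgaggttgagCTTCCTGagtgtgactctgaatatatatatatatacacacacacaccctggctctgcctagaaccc
Kdr: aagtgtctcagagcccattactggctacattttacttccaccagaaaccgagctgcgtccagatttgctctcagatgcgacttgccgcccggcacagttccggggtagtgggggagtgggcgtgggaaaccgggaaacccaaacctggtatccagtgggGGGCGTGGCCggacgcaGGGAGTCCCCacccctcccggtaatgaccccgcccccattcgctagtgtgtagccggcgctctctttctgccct

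The ETS letters were found in Glycam1, from 77 bases before the start, in Ackr1 from 133 and 66 bases before it, and in Emcn from 174 bases before it. They occur in 10.5% of 27025 mouse promoters of the same length. The κB letters were found in Madcam1 at 4 overlapping positions, from 84, 83, 71 and 70 bases before the start, and in Kdr from 91 and 74 bases before it. They occur in 45.4% of promoters. Chst4 held neither motif, and its window, chr8:110039335-110039584, lies within its annotated gene span, chr8:110029153-110039740. Of 3 other motifs searched on both strands, TATAAA (13.0% of promoters) and AGATAA (10.3%) matched none of the 6 members with a promoter entry, and CACCC (51.3%) matched Chst4, Ackr1 and Kdr. These matches describe the letters of the window only.

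The libraries held 31237062 UMIs in KO1134, 21089885 in KO1308 and 41581477 in the WT section, and spots were summed into bins of 27 µm, of which 12020, 15855 and 27100, each with at least 300 genes, were kept. A bin's area was the gene list with most UMIs in the 7 × 7 bins around it. The thymus list (Themis, Arpp21, Ptcra, Cd8b1, Prss16, Psmb11) gave 7799, 12459 and 24680 bins, the B cell list (Cd79a, Cd79b, Ms4a1) 1503, 422 and 0 bins, and the fat list 2028, 1288 and 1 bins. Bins led by the thymus list at under 50% of the section's share of it are called thymus-gene-poor (633, 1372 and 2331 bins). Within the thymus area the medullary genes Krt5 and Ccl21a were highest where thymus genes were lowest in each section. Trp53 stood at 14.8 CPM in the thymus area of KO1134, 24.9 CPM in KO1308 and 80.2 CPM in WT. Reads of the gene thus remained in the KO sections, and whether they lie outside the deleted part is not given in the sources used here. Fewer endothelial cells and less RNA per cell cannot be told apart in bins of this size. The WT section had no B-cell zone and almost no fat, so genotype can be set side by side in thymus tissue only.

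**Figure D1:**
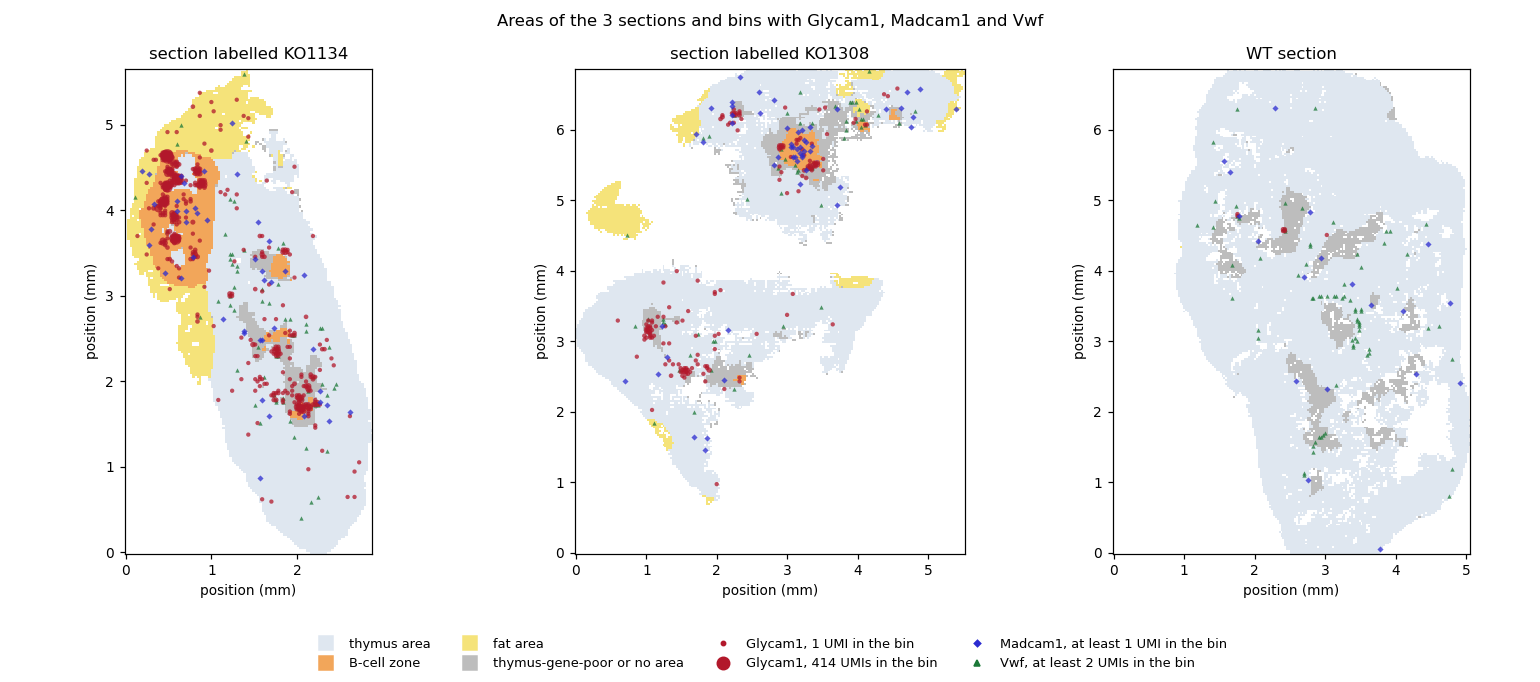
Maps of the 3 sections with positions in mm, coloured by area, with red points for bins with Glycam1 (point size by UMIs), blue for bins with Madcam1 and green for bins with at least 2 Vwf UMIs. The red points crowd into the large B-cell zone of KO1134, where the bin with most held 414 UMIs. In KO1308 they are spread over 155 bins with at most 7 UMIs in a bin, and the WT section held 8 Glycam1 UMIs in kept bins.

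Glycam1 was the member with the widest gap between KO and WT thymus. It reached 395 CPM (378–413; 1979 UMIs) in the B-cell zone of KO1134, 200 CPM (573 UMIs) in its fat area, 108 CPM (169 UMIs) in thymus-gene-poor bins and 37.9 CPM (35.3–40.6; 818 UMIs) in its thymus area. KO1308 held far less, with 66.5 CPM (107 UMIs) in thymus-gene-poor bins, 19.8 CPM (19 UMIs) in the B-cell zone, 7.16 CPM (95 UMIs) in the thymus area and 0.691 CPM (1 UMI) in fat. That fat reading turned with the processing: its ratio to thymus was 0.0966, but 13.8 with 50 µm bins and 5.04 with small fragments kept. The WT section held 0.13 CPM (0.0423–0.304; 5 UMIs) in the thymus area and 1.40 CPM (3 UMIs) in thymus-gene-poor bins. Among these areas the highest level thus lay in the B-cell zone of KO1134 and in the thymus-gene-poor bins of KO1308. In KO1134 57 bins had no area, because no list led alone with its minimum. Those bins held Glycam1 at 1627 CPM, with 131 of their 141 UMIs in 1 bin.

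Set against the thymus area, Glycam1 was 10.4-fold (9.60–11.3) higher in the B-cell zone of KO1134 and 2.77-fold (1.60–4.56) higher in that of KO1308. Many of the thymus-area UMIs of KO1134 came from islands inside the zone. The outline of its largest patch enclosed 214 bins of other areas, which together held 750 Glycam1 UMIs (1012 CPM). Of these bins 207 were called thymus, and moving them took the thymus area from 818 to 200 Glycam1 UMIs. Those bins carried the thymus label through Cd8b1, which mature CD8 T cells also express, at 468 CPM against 30.4 CPM in the thymus area outside. The cortical genes were low in them: Prss16 stood at 18.9 CPM against 459.7 CPM outside, and Psmb11 at 6.75 against 169 CPM. Ccr7, the receptor that brings T cells into lymph nodes, stood at 329 CPM against 34.1 CPM, and Lyve1, a lymphatic gene, at 158 against 0.671 CPM. The label thymus therefore goes against the genes of these islands. With the enclosed bins counted in the zone, a choice made after seeing the values, Glycam1 was at 474 CPM in the zone and 9.58 CPM in the thymus area, a ratio of 49.5 (42.9–57.4). The same step moved 42 bins with 31 UMIs in KO1308 and gave a ratio of 6.75 (4.69–9.60). KO1308 also had a separate fragment of 70 bins, left out because it is smaller than 200 bins, with 265 Glycam1 UMIs (3448 CPM) beside B cell and fat genes. With such fragments kept the KO1308 ratio was 31.5.

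The Glycam1 signal of KO1134 was gathered in few bins. In KO1134, 404 of the kept bins held its 3680 UMIs, 12 bins were enough for 50% of them, and the 10 richest bins held 46.7%. Pecam1, in contrast, was spread over 1998 bins of the same section, and its 10 richest bins held 1.88% of 2504 UMIs. Ackr1 and Vwf lay between them, at 16.2% and 13.6%. KO1308 was less concentrated, with 227 Glycam1 UMIs in 155 bins, at most 7 in a bin and 21.1% in the 10 richest.

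KO1134 had 10 local peaks of at least 20 Glycam1 UMIs, of which 8 lay within the outline of the large zone. Around the peaks the level went from 28613 CPM in the peak bin to 5892 CPM at 27 µm, 452 CPM at 54 µm and 32.4 CPM at 189 µm. KO1308 had 7 peaks of at least 3 UMIs, with 2361 CPM in the peak bin, 490 CPM at 27 µm and 161 CPM at 54 µm. Peak bins were chosen on Glycam1, so the other members at these places are the values to read. In the 3 × 3 bins around the peaks of KO1134, 7 of the other members had UMIs, and each of these 7 stood above its level in zone and thymus bins more than 3 bins away. Ackr1 was 7.94-fold (4.35–13.5) higher there, Kdr 5.05-fold (2.95–8.11), Plvap 5.01-fold (3.35–7.24), Emcn 4.64-fold (1.96–9.37), Vwf 4.18-fold (2.41–6.79), Pecam1 3.03-fold (2.36–3.84) and Cdh5 2.65-fold (1.26–4.93). Without the peak that held most of a gene's UMIs, Vwf was at 1.62 (0.59–3.56) and Cdh5 at 1.47 (0.476–3.48), and the other 5 ratios stayed at 2.76 or more. Around the peaks of KO1308 Vwf was 8.92-fold (5.45–13.9) higher and Plvap 6.05-fold (3.66–9.46). Of 21 Vwf UMIs there 14 lay at 1 of the 7 peaks, and the ratio without that peak was 3.93 (1.57–8.18). Several of the 7 peaks, that one among them, lay in thymus-gene-poor bins. In such bins of KO1308 as a whole Vwf was 3.46-fold and Plvap 2.09-fold the thymus level. Area and nearness to a peak were not separated. Ackr1, the highest of the other members in KO1134, had 3 UMIs around the peaks of KO1308, 2 of them at 1 peak. Without the peak of most UMIs its ratio was 1.95 (0.0487–11.2), that of Pecam1 1.57 (0.832–2.69) and that of Cdh5 4.18 (1.67–8.73). Kdr had 2 UMIs around these peaks, a ratio of 2.12 (0.254–7.82), and Emcn had 0, which allows up to 3.504-fold. Madcam1 had 0 UMIs around the peaks of both sections, which allows up to 6.82-fold in KO1134 and 6.89-fold in KO1308.

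Glycam1 is also a milk protein gene, and thymic epithelium can express milk genes, so other milk genes were read at the same places. Csn2, a casein gene, had 1 UMI around the peaks of KO1134 and 682 UMIs in the bins far from them, a ratio of 0.127 (0.0032–0.708), and Lalba had 0 and 502 UMIs. The summed level of 5 milk genes was 11.6 CPM in the B-cell zone of KO1134 and 46.8 CPM in its thymus area, the opposite order to Glycam1. In KO1308 they summed to 70.9 CPM in the zone and 39.0 CPM in the thymus area, the same order as Glycam1, and Csn2 had 3 UMIs around the peaks, a ratio of 0.652 (0.134–1.91). WT thymus-gene-poor bins held 217 UMIs of these milk genes (101.5 CPM) beside 3 of Glycam1. Fut7, the fucosyltransferase of the L-selectin ligand, was 6.09-fold (3.49–9.96) higher around the peaks of KO1134 and had 0 UMIs around those of KO1308.

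**Figure D2:**
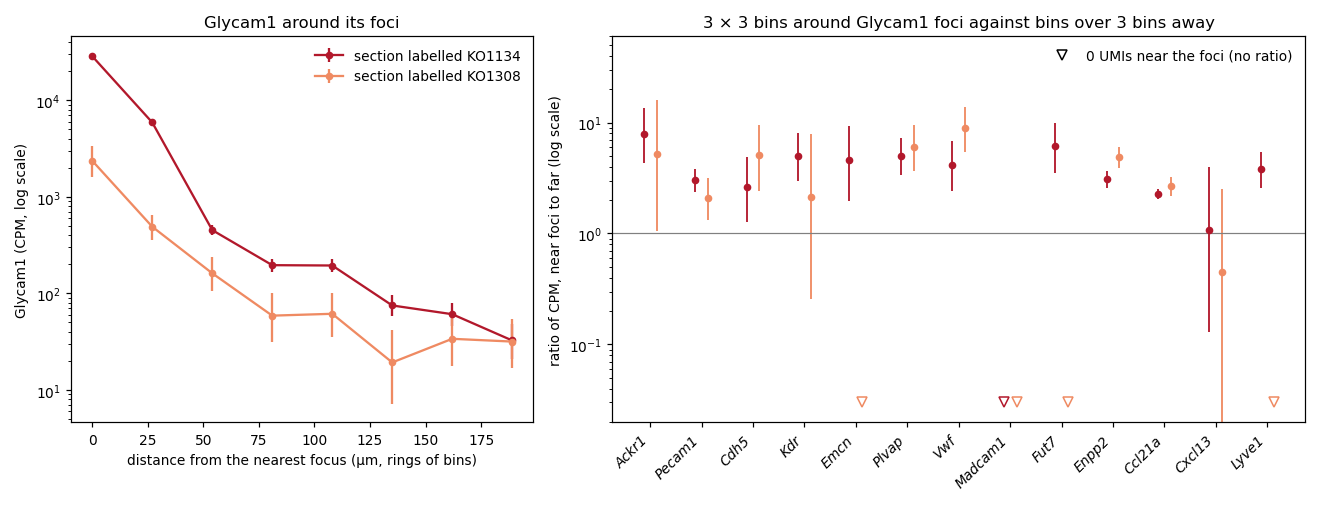
Left, Glycam1 in CPM (log scale) against the distance in µm from the nearest Glycam1 peak, with 95% exact Poisson intervals; right, the ratio (log scale) of each gene's CPM in the 3 × 3 bins around the peaks to its CPM more than 3 bins away, with 95% intervals and open triangles for 0 UMIs. Glycam1 went from 28613 to 452 CPM within 54 µm in KO1134, and of the genes plotted Ackr1 had the highest ratio in that section, while Madcam1 had no UMI near the peaks of either section.

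Madcam1 had its highest level in the B-cell zone in both KO sections, but at few UMIs. It stood at 3.39 CPM (17 UMIs) in the zone of KO1134 against 1.16 CPM (25 UMIs) in the thymus area, and at 18.8 CPM (18 UMIs) against 2.03 CPM (27 UMIs) in KO1308. The ratios were 2.93 (1.48–5.64) and 9.22 (4.78–17.4). The fat areas held 1.40 CPM (4 UMIs) and 1.38 CPM (2 UMIs). In WT the thymus area held 0.417 CPM (16 UMIs) and thymus-gene-poor bins 1.87 CPM (4 UMIs).

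Inside the zone of KO1134 Madcam1 and Glycam1 differed in where they were highest. The zone of KO1308 held 19 Glycam1 UMIs, few for such a reading, and both genes were present in a separate fragment of that section. The bins of the zone were split into 3 equal bands by the share of B cell genes around them. Glycam1 of KO1134 went from 495 CPM in the lowest band to 640 CPM in the middle and 85.8 CPM in the highest. Madcam1 had most UMIs in the highest band, with 4, 0 and 13 UMIs in KO1134 and 0, 4 and 14 UMIs in KO1308. Cxcl13, the chemokine that draws B cells into follicles, was also highest in that band, going from 4.33 over 13.1 to 57.4 CPM in KO1134 and from 23.8 over 188 to 425 CPM in KO1308. Ccl21a, the T-zone chemokine, went from 1060 over 741 to 577 CPM in KO1134. The zone of KO1134 with its enclosed bins had 18 bins with Madcam1, and these held 2 Glycam1 UMIs, a ratio of 0.0642 (0.00777–0.232) to bins without Madcam1. Glycam1 was clumped, with UMIs in 181 of the 1503 zone bins before the enclosed ones were added. So 18 bins could hold few of its UMIs without lying apart from it, and the interval does not cover this. In KO1308 the genes most like Madcam1 over tiles of 4 × 4 bins were Cr2 (r = 0.245), Clu (0.222) and Cxcl13 (0.188), genes of B cells and follicular stroma, over 838 tiles. In KO1134 they were Cep85 (r = 0.289) and Clu (0.28) over 587 tiles. The tiles share a library and differ in depth, and correlations of this size in sparse counts are descriptions only.

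**Figure D3:**
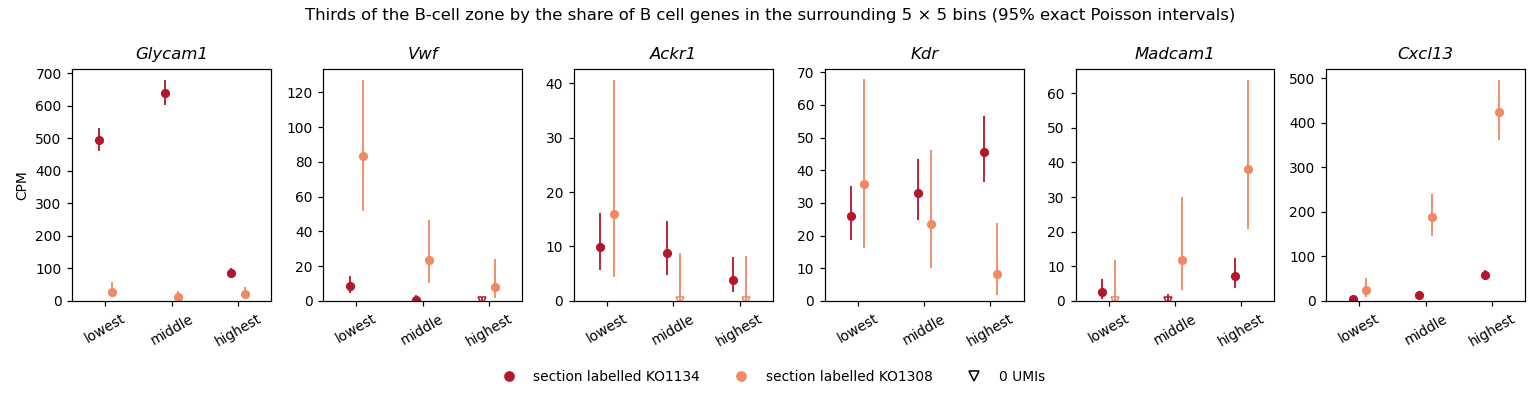
CPM of 5 members and Cxcl13 in the lowest, middle and highest of 3 equal bands of B-cell zone bins, ranked by the share of B cell genes in the surrounding 5 × 5 bins, with 95% exact Poisson intervals. In KO1134 Glycam1 stood at 85.8 CPM in the highest band, where Madcam1 stood at 7.25 and Cxcl13 at 57.4 CPM; in KO1308 Madcam1 reached 38.1 CPM in that band.

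Chst4 was not measurable at this depth. It had 1 UMI in the kept bins of KO1134, 1 in KO1308 and 5 in WT. In the B-cell zone it had 1 UMI in KO1134 and 0 in KO1308, where 3 UMIs would be 3.13 CPM. The sulphotransferase of the venules thus gave no reading beside Glycam1, its mucin partner.

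Ackr1 did not set the B-cell zone as a whole apart from the thymus area. It stood at 7.38 CPM (37 UMIs) in the zone of KO1134 and 6.35 CPM (137 UMIs) in its thymus area, a ratio of 1.16 (0.786–1.68), and at 4.17 CPM (4 UMIs) and 5.12 CPM (68 UMIs) in KO1308, a ratio of 0.814 (0.216–2.18). Thymus-gene-poor bins held 10.2, 11.2 and 7.48 CPM in KO1134, KO1308 and WT, against 3.52 CPM in the WT thymus area. In fat it stood at 2.44 CPM (7 UMIs) in KO1134 and 4.15 CPM (6 UMIs) in KO1308. Within the zone of KO1134 it nevertheless went with Glycam1: bins with a Glycam1 UMI held 26.2 CPM of Ackr1 against 3.61 CPM in bins without, a ratio of 7.27 (3.65–14.6). In the WT thymus area, which had almost no Glycam1, Ackr1 went with Vwf, at 30.8-fold (20.5–45.4) its level elsewhere in the 284 bins with a Vwf UMI.

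Pecam1 was high in every area. Among thymus, thymus-gene-poor, B-cell zone and fat bins it was highest in the zone of both KO sections. KO1134 held 69.8 CPM (1508 UMIs) in the thymus area, 127 CPM (639 UMIs) in the B-cell zone and 79.6 CPM (228 UMIs) in fat. KO1308 held 99.1 CPM (1316 UMIs), 111 CPM (107 UMIs) and 85.0 CPM (123 UMIs) in the same order. In the WT thymus area it stood at 104 CPM (3987 UMIs). The ratio of B-cell zone to thymus was 1.83 (1.66–2.004) and 1.12 (0.915–1.37). Between the bands of the thymus area by thymus genes it moved little, from 69.9 over 70.6 to 63.9 CPM in KO1134 and from 103 over 99.3 to 109 CPM in WT.

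Cdh5 and Kdr were highest in fat. Cdh5 stood at 38.7 CPM (111 UMIs) in the fat of KO1134 and 98.8 CPM (143 UMIs) in that of KO1308, which was 3.65-fold (2.89–4.602) and 6.07-fold (4.88–7.54) its thymus level of 10.6 and 16.3 CPM. The B-cell zones held 21.9 CPM and 22.9 CPM, ratios of 2.07 (1.63–2.61) and 1.41 (0.865–2.19). Kdr stood at 61.4 CPM (176 UMIs) in the fat of KO1134 and 72.6 CPM (105 UMIs) in that of KO1308, 7.41-fold (5.98–9.18) and 10.6-fold (7.92–14.2) its thymus level. The VEGF receptor gene was also higher in both B-cell zones, at 35.3 CPM (177 UMIs), a ratio of 4.26 (3.44–5.27), and 20.8 CPM (20 UMIs), a ratio of 3.04 (1.77–4.97). Unlike Glycam1, Kdr of KO1134 was ordered with the B cell genes inside the zone, from 26.0 over 33.1 to 45.7 CPM, while KO1308 had 9, 8 and 3 UMIs. WT thymus held 7.19 CPM (276 UMIs) of Cdh5 and 2.81 CPM (108 UMIs) of Kdr.

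Emcn was also highest in fat, but its reading in the B-cell zone differed between the KO sections. In fat it stood at 15.0 CPM (43 UMIs) and 40.1 CPM (58 UMIs), 2.70-fold (1.86–3.86) and 6.12-fold (4.31–8.62) the thymus level. In the B-cell zone it stood at 5.19 CPM (26 UMIs) in KO1134, a ratio of 0.933 (0.586–1.43), and 17.7 CPM (17 UMIs) in KO1308, a ratio of 2.70 (1.51–4.58). WT thymus held 3.62 CPM (139 UMIs).

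Plvap and Vwf were higher in the bins poor in thymus genes than in the thymus area. Plvap stood at 33.1, 62.2 and 34.6 CPM there in KO1134, KO1308 and WT, against 18.0, 29.7 and 11.4 CPM in the thymus area. In the B-cell zone it stood at 26.3 CPM and 22.9 CPM, and in fat at 21.99 CPM and 12.4 CPM. Vwf stood at 24.8, 60.9 and 36.0 CPM in thymus-gene-poor bins against 15.3, 17.6 and 10.01 CPM in the thymus area. Of the few bins without an area, where no list led alone with its minimum, those of KO1308 were higher still. They held Vwf at 172 CPM (113–250; 27 UMIs, 10 of them in 1 bin) and Plvap at 89.3 CPM (14 UMIs). Those of KO1134 had Plvap at 92.3 CPM (8 UMIs). Inside the thymus area Vwf was ordered against the thymus genes, going from 27.3 over 11.4 to 8.94 CPM in KO1134, from 31.4 over 16.1 to 7.23 CPM in KO1308 and from 25.4 over 5.56 to 2.30 CPM in WT.

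In the B-cell zone Vwf went opposite ways in the KO sections. KO1134 held 2.99 CPM (15 UMIs) there, 0.195-fold (0.108–0.327) its thymus level, and KO1308 held 33.3 CPM (32 UMIs), 1.89-fold (1.26–2.74). The large patch of KO1134, 1336 bins, held 5 Vwf UMIs (1.09 CPM) beside 1819 of Glycam1, and the smaller patches, 167 bins, held 10 (23.6 CPM). The large patch of KO1308, 347 bins, stood at 22.7 CPM and the smaller patches, 75 bins, at 149 CPM (12 UMIs). Within both zones Vwf sat where B cell genes were fewest, with 14, 1 and 0 UMIs over the bands of KO1134 and 21, 8 and 3 over those of KO1308. The KO1308 ratio was below 1 under alternative area rules, to 0.306 where the leading list had to hold at least 2 times the UMIs of the next and 0.277 where bins at area borders were left out.

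The Glycam1 peaks differed in Vwf by place. The 8 peaks within the large zone of KO1134 had 1 Vwf UMI in all in their 3 × 3 bins, while the peaks outside it, at thymus and small B-cell patches, had 11 and 5. In the thymus area of KO1134 outside the zone, bins with Glycam1 held 173 CPM of Vwf against 13.5 CPM in bins without, a ratio of 12.8 (9.26–17.4). The thymus area of KO1308 gave a ratio of 0.571 (0.0144–3.21) from 1 UMI, and its 65 bins with Ackr1 held 7.52-fold (3.83–13.4) more Vwf than the rest. In WT thymus, bins with Vwf held 19.1-fold (14.9–24.3) the Plvap, 15.4-fold the Emcn and 11.9-fold the Cdh5 of bins without.

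**Figure D4:**
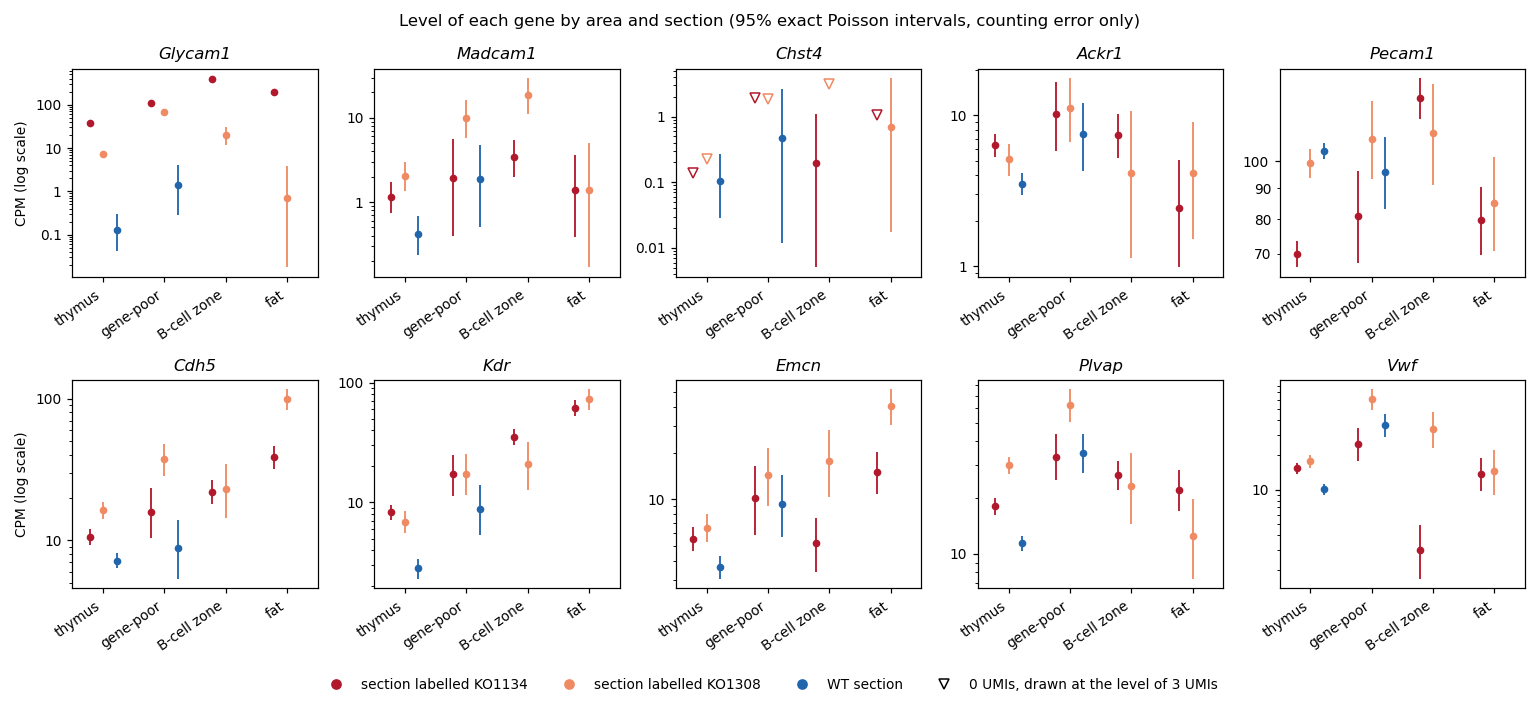
CPM (log scale) of each of the 10 genes in the thymus area, thymus-gene-poor bins, B-cell zone and fat of KO1134, KO1308 and WT, with 95% exact Poisson intervals and open triangles for 0 UMIs drawn at the level of 3 UMIs. Cdh5, Kdr and Emcn were highest in fat in both KO sections, Madcam1 was highest in the B-cell zone in both, and Pecam1 lay between 69.8 and 127 CPM throughout.

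Counted together with a 2-fold limit, the members gave 4 of 9 higher in the B-cell zone than in the thymus area of KO1134 (Glycam1, Madcam1, Cdh5, Kdr), where 5.82% of all genes with at least 20 UMIs were, and 4 of 9 in KO1308 (Glycam1, Madcam1, Kdr, Emcn), where 7.19% of genes were. For fat the count was 4 of 9 in KO1134 (Glycam1, Cdh5, Kdr, Emcn), with 7.77% of genes, and 3 of 9 in KO1308 (Cdh5, Kdr, Emcn), with 7.88% of genes. In thymus-gene-poor bins 2 of 9 members passed in KO1134, with 12.7% of genes, 8 of 9 in KO1308, with 8.7% of genes, and 6 of 8 in WT, with 18.8% of genes. The members were named with these contrasts known, so nothing is read from the counts. The fat reading of Glycam1 in KO1134 rested on few bins. Of its 573 UMIs there, 377 lay in 1 bin, and the ratio to thymus was 5.28 with the bin of most UMIs and 2.32 without it.

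Wider lists of vessel genes put the members in context. Of 14 other endothelial genes, 10 were at least 2-fold higher in fat than in thymus in KO1134 (median ratio 2.75, all genes 0.725) and 10 in KO1308 (4.22, all genes 0.571). Among them the tight-junction gene Cldn5 was 7.88-fold and 8.56-fold higher. In the B-cell zone 4 of the 14 passed in KO1134 (median 1.37), with 3 at least 2-fold lower, where 21.6% of all genes were, and 1 in KO1308 (median 1.28). Capillary genes followed fat as well, 4 of 5 in each section. Gpihbp1, which holds lipoprotein lipase on capillaries, was 9.05-fold and 25.4-fold higher there, and 0 of 5 passed in the B-cell zone of either section. Vegfa, the ligand of the Kdr receptor, was 5.49-fold and 8.69-fold higher in fat than in thymus.

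Of 12 genes that build or carry L-selectin ligands, Emcn among them, 0 passed in the B-cell zone of KO1134 (median 0.845, all genes 0.827) and 6 in KO1308 (median 1.98). The thymus area of KO1134, to which these ratios are taken, held the genes Fut7 at 10.4-fold and St3gal4 at 1.10-fold of WT. A count of 0 past 2-fold is therefore not absence from the zone. Chst2, a sulphotransferase that shares the task of Chst4, was 5.36-fold (3.98–7.14) higher in the zone of KO1308. Of 12 genes of venule adhesion and lymphotoxin signalling 1 and 3 passed. Of the arterial genes 0 of 6 passed in KO1134, with 5 at least 2-fold lower against 21.6% of all genes, and 1 of 5 in KO1308, and of the genes of pericytes and smooth muscle 1 of 6 and 4 of 6. Lymphatic genes were higher in the zone of KO1134, 4 of 6 (median 6.22), with Lyve1 29.8-fold (24.7–36.0), and 1 of 3 in KO1308. Of 7 genes of follicular and reticular stroma, 5 passed in KO1134 (median 7.65) and 7 in KO1308 (median 8.89), with Cxcl13 13.1-fold and 50.4-fold higher.

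Genotypes could be compared in thymus tissue. Glycam1 was 291-fold (124–898) higher in the thymus area of KO1134 than in that of WT and 54.9-fold (22.7–173) higher in KO1308, with 818 and 95 UMIs against 5. With the bins enclosed by the zone taken out of the thymus area, KO1134 kept 200 UMIs and its ratio was 73.6, and with border bins left out it was 60.8. Madcam1 was 2.78-fold (1.43–5.57) and 4.88-fold (2.54–9.69) higher, and Kdr 2.95-fold (2.31–3.78) and 2.44-fold (1.82–3.25). These 3 of 9 members were at least 2-fold higher in both KO sections, and 11.5% of genes were. Plvap was 1.57-fold and 2.60-fold higher, Vwf 1.53-fold and 1.76-fold, and Ackr1 1.80-fold and 1.46-fold. Pecam1 was at 0.672 (0.633–0.714) and 0.954 of the WT level. In thymus-gene-poor bins Glycam1 alone of 8 members passed in both, with 76.7-fold and 47.4-fold more than WT, and 2.25% of genes passed. Over all kept bins 4 of 9 passed (Glycam1, Madcam1, Cdh5, Kdr) and 11.8% of genes did. That reading mixes areas that the WT section lacks.

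Values that moved with these differences were of other cell types too. The summed erythroid level was 78.0 CPM in WT thymus against 32.8 CPM in KO1134 and 7.61 CPM in KO1308, and 199 CPM in the fat of KO1134. Platelet genes, which could accompany Vwf, summed to 13.9, 16.9 and 11.02 CPM in the thymus areas of KO1134, KO1308 and WT. Of the 14 other endothelial genes, 5 were at least 2-fold higher than WT in the thymus area of KO1134 (median 1.91, all genes 1.08), where 18.8% of genes were, and 9 in that of KO1308 (median 2.16, all genes 1.196), where 23.2% were. Among lymphatic genes Lyve1 was 5.02-fold (3.56–7.19) higher in KO1134 and at 0.251 (0.0657–0.689) of WT in KO1308. The KO1134 value counts the bins enclosed by the zone as thymus. Lyve1 was far higher in those bins than in the thymus area outside them, and no ratio without them was made, so a rise in thymus tissue cannot be read from it. Fat genes were higher in both KO thymus areas, with Cfd 3.11-fold and 14.8-fold and Car3 6.26-fold and 16.1-fold, 4 of 6 and 6 of 6 of the list past 2-fold. The B cell gene Cd79a was 3.30-fold and 3.36-fold higher. Cd8b1, of the thymus list, was at 0.0388 and 0.513 of WT. Their part in the ratios of single members was not tested.

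Over the same 4 × 4 tiles of B-cell zone and thymus area, the genes most like Glycam1 in KO1134 were Shisa5 (r = 0.408), Coro1a (0.4), Limd2 (0.398), Tmsb10 (0.394) and Dapl1 (0.388), among them the leukocyte actin regulator Coro1a. In KO1308 they were Ms4a4c (0.201), H2-Ab1 (0.198), Spib (0.195), Lrg1 (0.192) and Enpp2 (0.191). H2-Ab1 and Spib are genes of B cells and other antigen-presenting cells, Lrg1 is a gene of activated and venous endothelium, and Enpp2 makes lysophosphatidic acid at high endothelial venules. Vwf of WT was most like Ctgf (0.484), Lrg1 (0.458), Aqp1 (0.446), Plvap (0.439) and Acta2 (0.396) over 1624 tiles, and Cdh5 of WT was most like Ctgf (0.257), Aqp1 (0.254), Lrg1 (0.243), Vwf (0.232) and Plvap (0.229). The same members thus accompanied each other in WT thymus. In KO1134 Vwf was most like Apod (0.404) and Sparcl1 (0.394), and Cdh5 most like Igfbp7 (0.307) and Epas1 (0.304). Glycam1 and Madcam1 had too few UMIs in WT for this reading.

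With distance from the B-cell zone of KO1134, Glycam1 in thymus-area bins went from 45.3 CPM within 100 µm over 20.2 CPM at 100–250 µm to 1.70 CPM (0.464–4.36; 4 UMIs) beyond 1000 µm. Kdr went from 18.7 to 1.70 CPM over the same distances and Vwf from 18.7 to 3.41 CPM, with its highest value, 32.2 CPM, at 100–250 µm. Beyond 1000 µm Vwf lay below its WT thymus level of 10.01 CPM. Kdr had the same CPM there as Glycam1, and the interval of that value, 0.464–4.36, holds the WT thymus level of Kdr, 2.81 CPM. In KO1308 thymus-area bins within 100 µm of the zone held 0 Glycam1 UMIs, where 3 UMIs would be 27.7 CPM. That bound lies above the levels farther out, 13.6 CPM at 500–1000 µm and 3.66 CPM beyond. Whether Glycam1 followed the zone in KO1308 can therefore not be read from these counts.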

How the data were processed

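Thymus sections of 2 Trp53-/- mice and 1 Trp53+/+ mouse were profiled by spatial transcriptomics on the BMKMANU S1000 chip. The authors deposited raw UMI counts per gene and barcoded spot, made with BSTMatrix and STAR per their methods, on GRCm38 per the submitters' processing notes. Spots, 4.8 µm apart, were summed here into 27 µm bins. Bins with at least 300 genes, at most 30% mitochondrial UMIs and a place in a connected group of at least 200 bins were kept. Areas were set by the leading gene list in 7 × 7 bins, with at least 10 UMIs. CPM is scaled to all UMIs of an area. Exact Poisson intervals of CPM and exact conditional binomial intervals of ratios, both at 95%, cover counting error only; a count of 0 was bounded by 3 UMIs. Interval and window code was checked on simulated data. No test was made. Bins are not replicates. Medians of ratios and the share of genes past 2-fold took genes with at least 20 UMIs in the areas compared. The genes named are the 10 members, the genes of the fixed lists, and for Glycam1, Madcam1, Cdh5 and Vwf those most alike over 4 × 4 tiles of at least 8 bins by Pearson's r of square-root CPM. The members, lists and rules were chosen with earlier results of these data known. RefSeq promoters (GRCm38.p6) matched 6 of the 10 members. Another 10 settings and, chosen after seeing the data, 4 more were tried, and the Glycam1 peaks were also read without the peak of most UMIs. Python 3.11.15, numpy 2.4.6, scipy 1.17.1, pandas 2.3.3 and matplotlib 3.10.9 were used.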

Additional observations from a re-analysis of the deposited data

Results flagged for a closer look

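Glycam1 was also read in bins that the filters left out, which no comparison used. In KO1308 these bins held 326 Glycam1 UMIs among 3643554, or 89.5 CPM (80.0–99.7), and in KO1134 they held 3 among 112531, or 26.7 CPM. The left-out bins of WT held 0, where 3 UMIs would be 2.98 CPM. Of the 326 UMIs of KO1308, 275 lay in bins that passed the gene limit but sat in groups under 200 bins, and 265 of these lay in a fragment of 70 bins.

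That fragment held 265 Glycam1 UMIs in 38 bins, or 3448 CPM (3046–3889), with at most 52 in a bin. The bins enclosed by the zone of KO1134 stood at 1012 CPM. Plvap stood at 312 CPM (24 UMIs), Pecam1 at 325 CPM (25 UMIs), Vwf at 221 CPM (17 UMIs), and Madcam1 and Ackr1 at 130 CPM each (10 UMIs each). Cdh5 and Emcn each had 6 UMIs, Kdr 5 and Chst4 0. The fat list had 507 UMIs there, the B cell list 106 and the thymus list 23. By the area rule 19 bins of the fragment were B-cell zone and held 205 of its Glycam1 UMIs. The other 51 bins were fat and held 60. Ccl21a had 68 UMIs, Lyve1 had 0, and the 5 milk genes had 0. Madcam1 and Glycam1 were thus both present in the fragment.

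Pecam1 in thymus-gene-poor bins set against the thymus area had a ratio of 0.923 in WT and lay above 1 in both KO sections, at 1.16 and 1.10. The difference between genotypes was not tested.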

How the results depend on the processing

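Single ratios between areas or genotypes were labelled unchanged in 709 of 776 readings, staying within their main interval where there was one. The Chst4 ratios of KO to WT were bounds without an interval. Their 10 readings in each KO section were counted as unchanged whatever their value. In 44 readings the single ratios lay on the other side of 1, of which 40 had a main ratio within 2-fold, 31 of them in KO1308, and 4 had one past it. Of the counts of members past 2-fold, 70 readings stayed within 1.5 times the main count and 2 did not. Those 4 were of fat against thymus in KO1308: Glycam1 went from 0.0966 to 13.8 with 50 µm bins and 5.04 with no minimum group size, and Plvap from 0.419 to 1.15 and 1.06 under the same changes. Ratios nearer 1 that moved far were, in KO1308, Vwf in the zone (1.89 to 0.277), Ackr1 in the zone (0.814 to 2.25) and in fat (0.809 to 2.30), and Madcam1 in fat (0.68 to 3.29). The number of members at least 2-fold higher in fat in KO1308 was 3 and became 6 with 50 µm bins. Members at least 2-fold above WT in the thymus area numbered 3 with both KO sections and 3 to 5 without KO replicate 1 or 2; KO1308 alone gave 5, with Cdh5 and Plvap added. Over all 14 alternatives Glycam1, Madcam1 and Kdr kept their 2-fold gap in the B-cell zone of KO1134, Madcam1, Kdr and Emcn in that of KO1308, Cdh5, Kdr and Emcn in fat of both sections, and Glycam1 and Kdr between KO and WT thymus. The B-cell zone ratio of Glycam1 ranged from 9.27 to 50.4 in KO1134 and from 1.46, with no limit on the thymus share, to 31.5, with no minimum group size, in KO1308. The fat ratio of Glycam1 in KO1134 ranged from 1.69 to 20.9. The cause of these shifts was not tested. WT had no B-cell zone and 1 fat bin, so no alternative gave a WT ratio for them. No paired analysis was possible because there was 1 WT section and no test. Depth limits Chst4, Madcam1 and the B-cell zone of KO1308.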
